A study of Mus musculus with 20 samples.

Results

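The small nucleolar RNAs (snoRNAs) and the small Cajal body-specific RNAs (scaRNAs) were described in 20 RNA-seq libraries of MC38 tumours. Members were all rows of the deposited table whose symbol starts with Snord, Snora or Scarna followed by a number, which gave 118 of 23402 rows: 73 box C/D RNAs (Snord), 36 box H/ACA RNAs (Snora) and 9 scaRNAs (Scarna). MC38 is a mouse colon carcinoma line, here grown as a tumour under the skin. The Control group held 10 tumours given vehicle and the P.T.ATBx group 10 tumours given ATBx around the tumour. ATBx is a usual abbreviation for antibiotics, but the labels name no agent, dose, time, strain or age, and nothing in them ties a library to a mouse of its own, so p-values here cover the spread of these samples and part of it may be technical. RNA was taken with a silica column kit and libraries were made with a stranded kit for total RNA, so transcripts without a poly(A) tail were kept. Columns of this kind hold short RNAs less well than long ones, and what that did to the levels below was not tested. The library Control 1 stands apart from the rest, with the highest summed FPKM and the highest values of many members, and shares, spreads and differences that move with it are also given without it.

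SnoRNAs work as guides in RNA-protein particles of the nucleolus. Box C/D RNAs pair with ribosomal RNA and direct 2′-O-methylation by the methyltransferase fibrillarin, box H/ACA RNAs direct pseudouridylation by dyskerin, and scaRNAs guide the same modifications of spliceosomal RNAs in Cajal bodies. Some, such as Snord118 (U8), Snord22 (U22) and the Snord14 family (U14), are known for a part in cutting the ribosomal RNA precursor. In mammals most are trimmed out of introns of host genes, many of which encode ribosomal proteins or are noncoding Snhg transcripts.

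The sequences below are of the members on which the results turn. They are GENCODE M21 transcripts on GRCm38, the build of the deposited table (mm10), and capitals mark a C box (TGATGA beginning within the first 12 bases), a D box (CTGA ending within the last 12 bases) or an ACA followed by 2 to 4 bases at the 3′ end. Only the RNA's own strand was searched.
The first 3 lines show abundant box C/D RNAs: Snord15b at chr7:99479563-99479707, minus strand, inside Rps3, Snord22 at chr19:8725866-8725991, plus strand, inside Snhg1, and Snord17 at chr2:144265979-144266216, minus strand, inside Snx5.
Snord15b: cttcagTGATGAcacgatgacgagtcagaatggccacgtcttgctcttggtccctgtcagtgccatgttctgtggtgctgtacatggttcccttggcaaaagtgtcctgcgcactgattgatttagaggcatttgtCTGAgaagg
Snord22: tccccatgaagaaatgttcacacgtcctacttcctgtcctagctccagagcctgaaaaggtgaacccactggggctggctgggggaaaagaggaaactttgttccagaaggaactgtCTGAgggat
Snord17: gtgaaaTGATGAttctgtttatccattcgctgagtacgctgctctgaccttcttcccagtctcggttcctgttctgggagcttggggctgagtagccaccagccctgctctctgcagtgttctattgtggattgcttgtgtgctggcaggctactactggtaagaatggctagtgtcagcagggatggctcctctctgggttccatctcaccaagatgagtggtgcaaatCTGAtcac
The next 3 lines show the members with the smallest unadjusted p between the groups: Snora78 at chr17:24719676-24719803, minus strand, inside Snhg9, Scarna13 at chr12:105031075-105031349, minus strand, inside Snhg10, and Snora81 at chr16:23110756-23110933, plus strand, inside Eif4a2.
Snora78: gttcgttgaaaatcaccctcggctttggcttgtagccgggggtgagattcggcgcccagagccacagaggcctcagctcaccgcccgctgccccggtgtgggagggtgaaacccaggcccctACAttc
Scarna13: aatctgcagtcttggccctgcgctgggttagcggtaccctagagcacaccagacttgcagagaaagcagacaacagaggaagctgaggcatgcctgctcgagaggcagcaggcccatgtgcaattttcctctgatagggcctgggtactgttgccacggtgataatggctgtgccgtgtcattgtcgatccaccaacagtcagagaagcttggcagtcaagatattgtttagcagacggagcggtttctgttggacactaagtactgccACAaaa
Snora81: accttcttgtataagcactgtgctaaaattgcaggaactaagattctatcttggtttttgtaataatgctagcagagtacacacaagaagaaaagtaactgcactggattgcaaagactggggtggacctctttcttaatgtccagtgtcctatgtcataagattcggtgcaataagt
The last 3 lines show short or undetected RNAs: Snord47 at chr1:161038082-161038158, plus strand, inside Gas5, Snord49a at chr11:62603450-62603521, plus strand, and Snord118 at chr11:69073427-69073561, plus strand.
Snord47: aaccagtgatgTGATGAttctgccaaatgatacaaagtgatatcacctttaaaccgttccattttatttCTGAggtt
Snord49a: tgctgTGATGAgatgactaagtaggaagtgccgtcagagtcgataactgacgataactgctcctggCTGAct
Snord118: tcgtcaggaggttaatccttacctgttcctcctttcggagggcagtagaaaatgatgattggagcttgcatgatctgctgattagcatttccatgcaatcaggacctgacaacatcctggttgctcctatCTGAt
The D box stood in 90.4% of the 73 box C/D members, the C box in 60.3% and both in 57.5%, against 0.0454% with both among 2201 GENCODE miRNA transcripts and 0 of 1383 snRNA transcripts. The ACA stood in 94.4% of the 36 box H/ACA members, against 9.13% of the miRNAs and 2.02% of the snRNAs. Of the 9 scaRNAs, 4 held both C and D boxes and 4 the ACA. Snord22 and Snord118 hold no TGATGA and Snora81 no ACA in these windows, which says nothing of a box written with other letters. GENCODE and RefSeq draw some ends differently: Snora78 has 128 bases here and 157 in RefSeq, Snora81 178 and 164, Snord17 238 and 221, Snord47 77 and 65, Snord49a 72 and 62, while Snord15b (145), Snord22 (126) and Scarna13 (275) are the same length in both. The lengths used below are those of RefSeq.

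Levels were deposited as FPKM, a fragment number divided by transcript length and library depth. Within a member, values in all libraries were whole multiples of a single step once the libraries' relative depth was taken into account, so the number of fragments behind each value could be read back. This held in 62 members over several libraries, and in 9 members above 0 in a single library the step was taken from the length alone. A step was accepted only with every value within 0.02 of a whole fragment. It also had to be near the step that other members gave for that length. All 894 values above 0 in the 62 members thus lay within 0.02 by this rule, and 848 lay within 0.001. For 7 members no fragments are given. In Snora74a, Snora26, Snora24 and Snora47 the values were not whole multiples of a step of the size that length gives. Snord45c, Snord53 and Snord7 were above 0 in 1 library each, and that value did not match the size for their length.

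The FPKM of 1 fragment depended on the annotated length far more steeply than length itself. In the library Control 6, 1 fragment was worth 158.5 FPKM in Snord99 with 56 nucleotides (nt), 89.6 in Snord34 with 66 nt, 36.6 in Snord35b with 87 nt, 12.6 in Snora34 with 118 nt, 4.73 in Snora78 with 157 nt and 0.783 in Scarna13 with 275 nt. From Snord99 to Snora23 with 184 nt the value fell 57.4-fold while length rose 3.29-fold. A short box C/D RNA thus reached a high FPKM with a few fragments. Snord47, with a mean of 591 FPKM, stood on 7.30 fragments per library (1 to 14), and Snord49a, with a median of 215 FPKM, on a median of 2. Scarna13, with 859 FPKM, stood on 1281.3. FPKM therefore does not rank short and long members on 1 scale, so fragments are named below beside the FPKM of the members described.

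**Figure D1:**
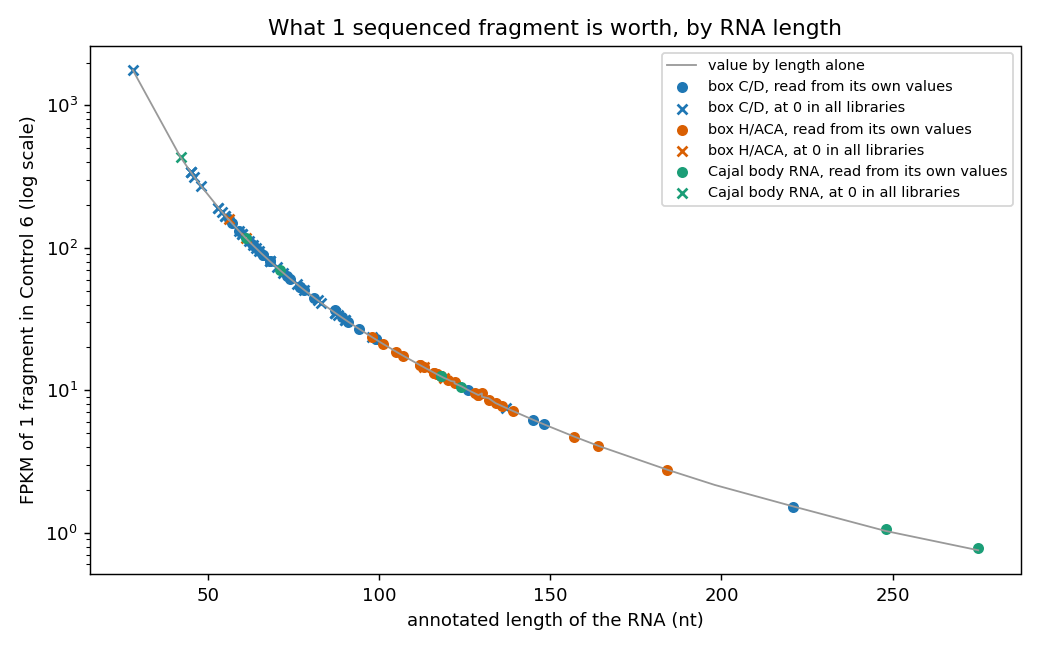
FPKM that 1 fragment is worth in the library Control 6 (vertical axis, log scale) against the annotated length in nucleotides, with a point for each member whose step was read from its own values and a cross, placed on the line for length alone, for each member at 0 in all 20 libraries. The points run from 158.5 at 56 nt to 0.783 at 275 nt, and the crosses gather at the short end.

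Of the 118 members, 31 were above 0 in every library, 47 in some libraries (12 of them in a single one) and 40 in none. The classes differed: 8 of 73 box C/D RNAs, 20 of 36 box H/ACA RNAs and 3 of 9 scaRNAs were above 0 in every library, and 35, 4 and 1 were at 0 in all. Their median lengths were 68, 119.5 and 118 nt. Of 8 members up to 50 nt, 7 were at 0 in all libraries, and so were 9 of 15 from 51 to 60 nt, 9 of 24 from 61 to 70 nt, 3 of 10 from 71 to 80 nt and 9 of 19 from 81 to 100 nt. Above that the shares were 2 of 17 from 101 to 120 nt, 1 of 18 from 121 to 150 nt and 0 of 7 from 151 nt, and these last 7 were above 0 in every library. Class and length go together in this set, and their parts cannot be told apart.

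The 3 members over 100 nt at 0 throughout were Snord118, the U8 RNA of large-subunit rRNA processing (137 nt), and the box H/ACA RNAs Snora36b and Snora35. Snora35 is known as a brain RNA from the Htr2c gene. If the deposited 0 is a count, 0 fragments in 20 libraries allow Snord118 a mean of up to 0.965 FPKM, Snora36b up to 1.86 and Snora35 up to 1.56 (3 fragments over all libraries, counting error only). For the shortest member, Snord98 with 28 nt in RefSeq, the same 0 allows 227 FPKM, so its level is hardly limited. An exact 0 in such a table can also be a failed estimate, which the file does not mark. Members with at least 50% of their bases in an annotated exon of another gene were at 0 in all libraries in 13 of 31 cases up to 100 nt and in 0 of 21 above it. For the others these were 24 of 45 and 3 of 21.

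Some well-known families were at 0 in all libraries, among them Snord33, Snord14a, Snord14c and Snord14d (U14) and the imprinted Snord116 and Snord116l1, known from neurons. Near-identical copies occur here: Snord116 and Snord116l1 are 98.9% identical, Snord14c and Snord14d 97.7%, Snord1b and Snord1c 97.4%, Snord88a and Snord88c 94.4% and Scarna3a and Scarna3b 85.7%. How reads shared by copies were counted is not given in the sources used here, so these values are uncertain.

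Of 7042 rows with a median above 10 FPKM, 17 were at 0 in some library, and 13 of the 17 were members. They were Snord32a, Snord35a, Snord82, Snord1b, Snord49a, Snord49b, Snord89, Snora5c, Snora28, Snora62, Snora68, Snora75 and Scarna10. In fragments, the gap between such a 0 and the values beside it was small. Snord49b ran from 0 to 647 FPKM around a median of 197, which is 0 to 8 fragments around 2, with 5 Control libraries at 0 and 2 of P.T.ATBx. Snord49a, from the same host, ran from 0 to 521 FPKM, or 0 to 5 fragments, with 1 P.T.ATBx library at 0. Snord82, inside the nucleolin gene Ncl, had a median of 123 FPKM from 2 fragments and 3 libraries at 0. Snord32a, inside the ribosomal protein gene Rpl13a, ran from 0 to 437 FPKM, or 0 to 14 fragments, with 1 Control library at 0. The median over libraries was 1 to 3 fragments in each of the 13. In all of them the groups overlapped, and the unadjusted p of the difference between groups ran from 0.247 to 0.934 over these 13 comparisons (two-sided permutation test, 100000 resamples).

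By FPKM, 12 members carried 78.7% of the members' sum. The mean over 20 libraries was 4726 FPKM for Snora74a, 2829 for Snord15b, 2502 for Snord22, 1642 for Snord17, 917 for Snora78, 859 for Scarna13, 594 for Snora7a, 591 for Snord47, 443 for Snora26, 438 for Scarna6, 437 for Snora44 and 435 for Snord15a. By fragments the order was another. Scarna13 led with 25626 fragments over the 20 libraries, 27.4% of all recovered ones, followed by Snord17 with 25186, Snord15b with 10672, Scarna6 with 9611 and Snord22 with 5793. The 12 members with the most fragments held 95.2% of them. Snora74a, first by FPKM, is not in this second order, since no fragments could be read back for it.

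The box C/D RNAs Snord15b, Snord22 and Snord17 stood on over 100 fragments in every library. Snord15b ran from 2377 over a median of 2851 to 3936 FPKM in Control and from 1745 over 2785 to 3374 in P.T.ATBx, on 297 to 828 fragments per library. Snord22 ran from 1872 over 2310 to 5441 in Control and from 1510 over 2366 to 3281 in P.T.ATBx, on 159 to 577 fragments. Snord17 ran from 948.7 over 1378 to 3226 in Control and from 1279 over 1736 to 2312 in P.T.ATBx, on 672 to 2272 fragments. In all 3 the groups overlapped along most of their range, and the highest Control value was that of Control 1.

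Among the box H/ACA guides, Snora74a ran from 2631 over 4393 to 10375.1 FPKM in Control and from 3553 over 4376 to 6832 in P.T.ATBx. Snora7a, from the ribosomal protein gene Rpl32, ran from 387 over 528 to 701 in Control and from 421 over 629 to 1036 in P.T.ATBx, on 46 to 126 fragments. Snora44, from Snhg12, ran from 233 over 395 to 801 and from 208 over 415 to 642, on 17 to 66 fragments. In Snora7a and Snora44, as in Snord15b, Snord22 and Snord47, 100% of the bases lie in an annotated exon of the host. Fragments of the host can thus count toward these levels, and their part was not tested. Of the scaRNAs, Scarna6, from an intron of the autophagy gene Atg16l1, ran from 248 over 402 to 898 FPKM in Control and from 317 over 437 to 603 in P.T.ATBx, on 251 to 904 fragments. Scarna13 had the smallest ratio of highest to lowest value among the 12, from 757 over 891 to 1036 in Control and from 657 over 824 to 972 in P.T.ATBx, on 973 to 1653 fragments.

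**Figure D2:**
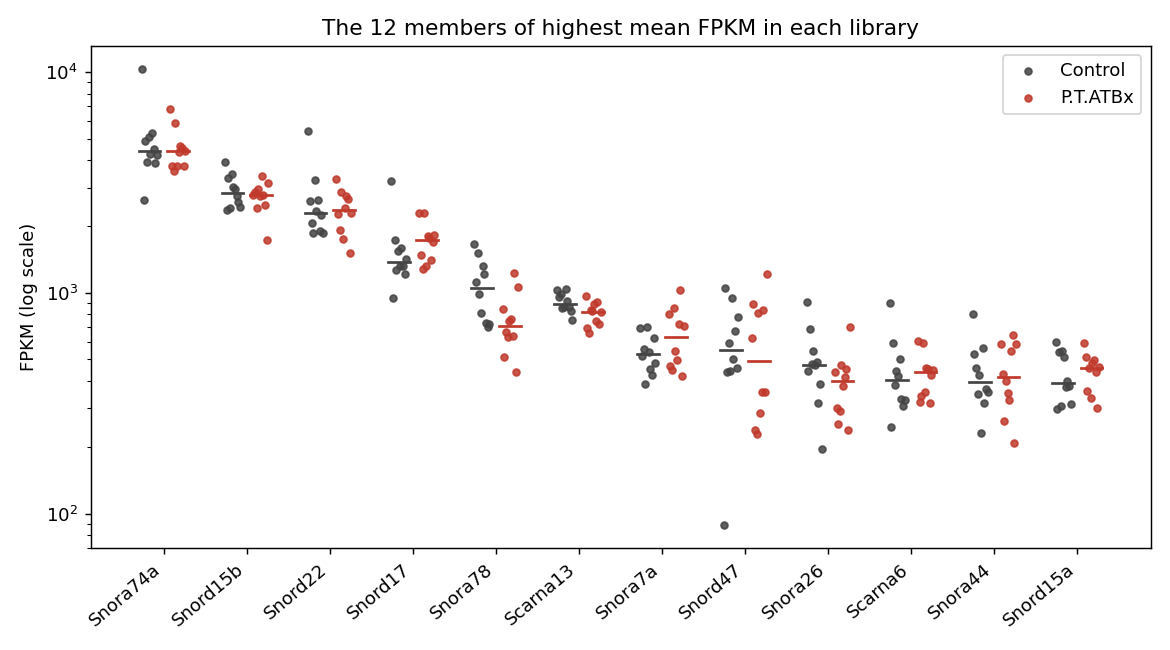
FPKM (log scale) of the 12 members of highest mean FPKM, a point per library, 10 Control and 10 P.T.ATBx, with a bar at each group's median. The groups overlap in every member, and the single point far above the others in Snora74a, Snord22 and Snord17 is Control 1.

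The spread between libraries of a group was measured as the coefficient of variation of FPKM, the SD over the mean. Counting alone gives a coefficient that falls as fragments rise, so the measured value is set beside it. In the 31 members above 0 with a mean under 1 fragment, the median coefficient was 200% for Control against 211% for P.T.ATBx. Counting alone gives a median of 224% over all 31. Members at 0 throughout a group have no coefficient there and are missing from that group's median. The coefficients also reached at most 316%, the counting values 447%, so these medians cannot be set against counting. For 22 members with 1 to 10 fragments the medians were 68.6%, 69% and 51%, in the same order. For 12 members with 10 to 100 fragments they were 38.2%, 33.1% and 17.1%, and for 6 members with 100 or more 36.2%, 22% and 4.44%. Without Control 1, the median of these last 6 was 18.5% in Control. Snord17 had 40% in Control, 17% without Control 1 and 21.3% in P.T.ATBx, and Snord22 41.1%, 19.9% and 22.7%. Scarna6 had 42.3%, 27.3% and 23.9%, and Snora78 32.4%, 29.5% and 32.2%. Scarna13, with the most fragments, had the smallest spread of the 6, at 10.1%, 9.68% and 12.7%, and Snord15b followed with 17.7%, 14.1% and 16.3%.

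**Figure D3:**
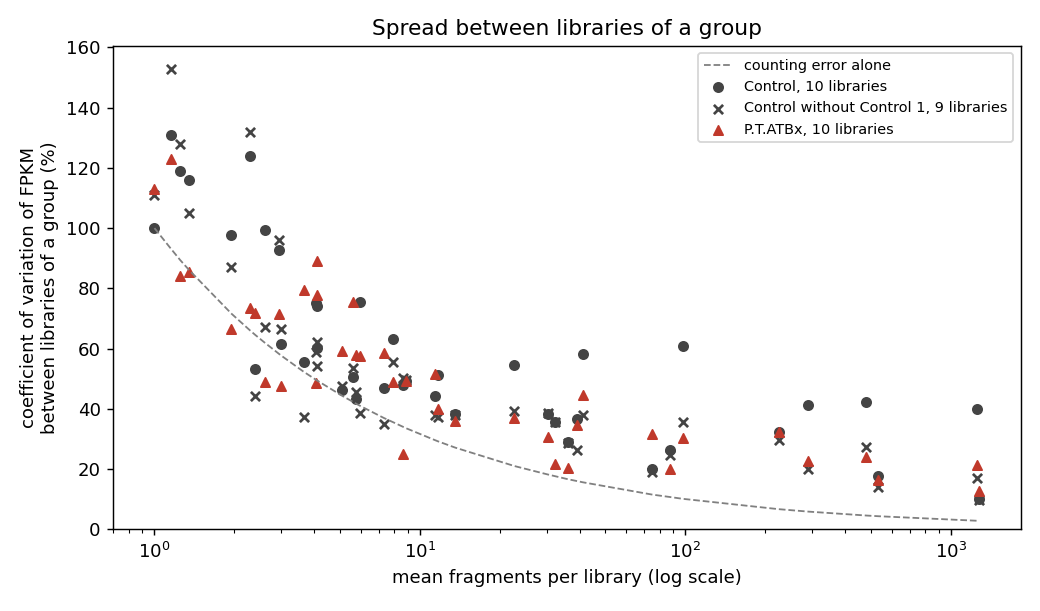
Coefficient of variation of FPKM between libraries of a group (%) against the mean fragments per library (log scale) for members with a mean of at least 1 fragment, with points for Control, crosses for Control without Control 1, triangles for P.T.ATBx and a dashed line for counting error alone. Among the 6 members over 100 fragments, the Control median is 36.2% with Control 1 and 18.5% without it.

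The libraries moved several members at once. In the 18 members with a mean of at least 10 recovered fragments, Control 1 lay above the Control median in all 18 and held the highest Control value in 13, with a median deviation of 0.91 on the log2 scale. Control 2 was lowest in 8 and Control 10 in 5. Among P.T.ATBx libraries, P.T.ATBx 1 and P.T.ATBx 8 each held the highest value in 7 members, and P.T.ATBx 9 the lowest in 10, with a median deviation of −0.58.

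**Figure D4:**
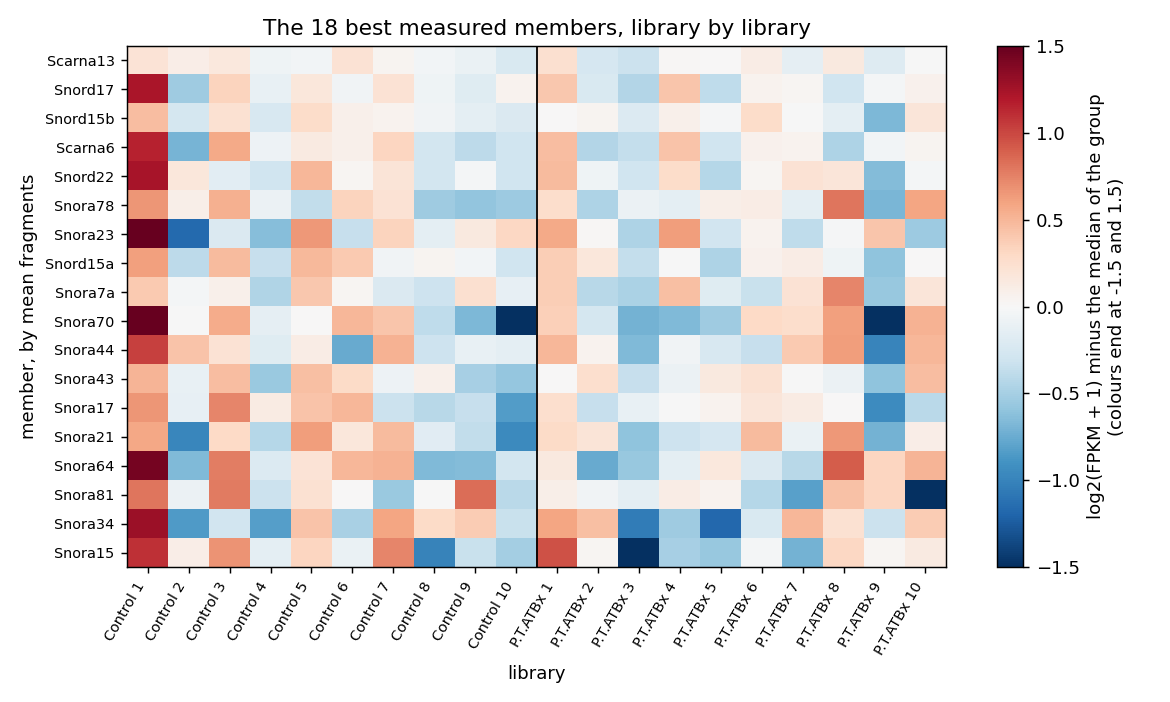
Deviation of log2(FPKM + 1) from the median of the library's own group (colour, red above and blue below) for the 18 members with at least 10 mean fragments (rows, most fragments at the top) in the 20 libraries (columns, Control left of the line). Control 1 is above the median in all 18 members, and P.T.ATBx 9 is the lowest of its group in 10.

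Composition of the libraries varied as well. Rpph1 and Rmrp, the RNA parts of the processing enzymes RNase P and RNase MRP, took 12.2% ± 3.59 of summed FPKM in Control (7.747% to 20.48%, the highest in Control 1) against 12.4% ± 2.43 in P.T.ATBx (mean ± SD of 10 libraries). Without Control 1 the Control share was 11.3% ± 2.26, up to 14.96%. Their share was compared with the log2 level of each of the 18 members within each group, 36 relations in all, with permutation p-values adjusted by Benjamini-Hochberg. In Control all 18 Pearson correlations were positive with a median of 0.70, and 6 passed an adjusted p of 0.05. Without the 2 libraries farthest from the median share, Control 1 and Control 2, 16 of the 18 were positive with a median of 0.59. Snora23 then turned from 0.68 to −0.24 and Snora34 from 0.61 to −0.08, and Snord22 went from 0.60 to 0.24 and Snora7a from 0.36 to 0.06, so these rest on those libraries. Other relations rose: Snora78 from 0.723 to 0.955, Scarna13 from 0.571 to 0.83 and Snora15 from 0.727 to 0.836. Snora70 rose from 0.776 to 0.865 and Snora17 from 0.644 to 0.673, and all the rest fell. In P.T.ATBx the median was 0.18 and 2 passed, and without the 2 farthest the median was 0.04. Scarna6 and Snord17 passed in both groups. For Scarna6, r was 0.97 in Control (rho 0.93, adjusted permutation p = 0.0018 for r and 0.00702 for rho) and 0.89 in P.T.ATBx (rho 0.84, adjusted permutation p = 0.00567 and 0.0407). For Snord17, r was 0.90 in Control (rho 0.77, adjusted permutation p = 0.00567 and 0.0642) and 0.83 in P.T.ATBx (rho 0.82, adjusted permutation p = 0.0175 and 0.0418). Without the 2 farthest libraries of each group, r was 0.90 and 0.82 for Scarna6 and 0.60 and 0.84 for Snord17. By rho, 3 relations passed in Control and 2 in P.T.ATBx. Both sides of each relation share the library's scaling, and what lies behind it was not tested.

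Together the members took 3.52% ± 0.585 of summed FPKM in Control (2.912% to 4.851%) against 3.39% ± 0.466 in P.T.ATBx (2.538% to 4.028%, mean ± SD of 10 libraries), ranges that overlap. Without Control 1 the Control share was 3.37% ± 0.372, up to 3.893%. The number of members above 0 per library was 43 to 51 in Control and 43 to 55 in P.T.ATBx. In bulk tissue, fewer cells of a type and less RNA per cell cannot be told apart.

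Between P.T.ATBx and Control no member passed the test. Of the 77 members with a mean of at least 0.5 FPKM, 0 were higher and 0 lower at an adjusted p of 0.05 (limma on log2(FPKM + 1), Benjamini-Hochberg over 12788 rows). Of all tested rows, 0.845% were called, 0.461% higher and 0.383% lower. The 77 had passed the filter on the mean over all 20 libraries. At an unadjusted p under 0.05 there were 2 members, 2.6% of those tested, against 13.6% of all rows. Without Control 1 there were 5 of the 77, and the smallest p was then that of Snord17. The share over all rows in that fit is not given here. With all 20 libraries, the groups failed to overlap in 0 members, against 0.133% of all rows. The log2 difference was above 0 in 44 members and below 0 in 33, with a median of 0.05 against 0.00 for all rows. By class the median was 0.06 in 37 box C/D RNAs, 0.02 in 32 box H/ACA RNAs and 0.09 in 8 scaRNAs. The lack of calls does not show that the levels were equal: the 95% confidence interval of the difference reached a median of 1.32 to either side on the log2 scale, against 0.12 over all rows. For the 18 members with at least 10 fragments it reached 0.40 and for the 53 with fewer it reached 1.72.

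**Figure D5:**
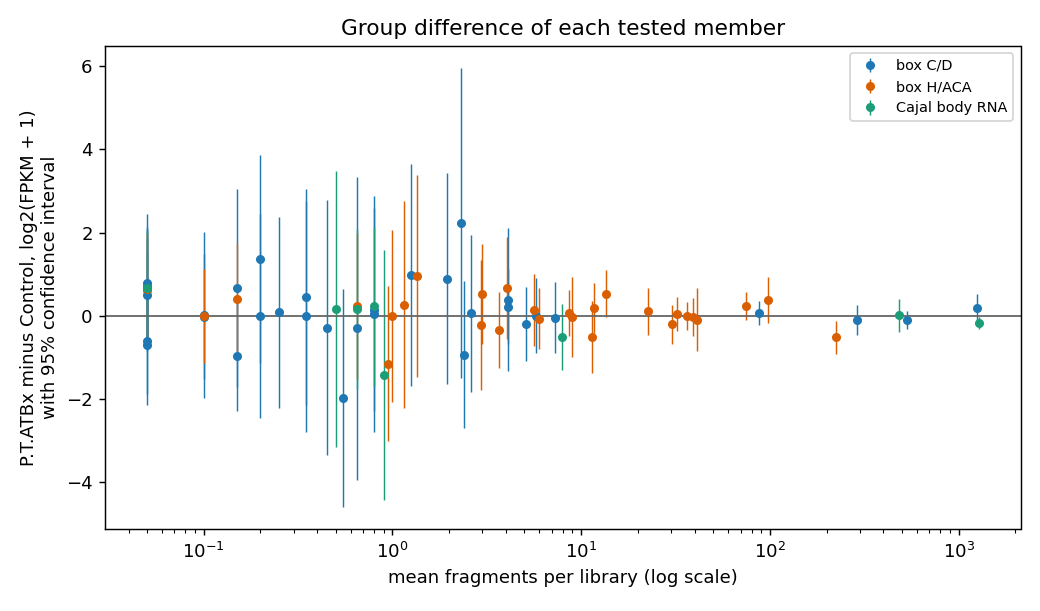
Difference between P.T.ATBx and Control in log2(FPKM + 1) with its 95% confidence interval (vertical axis) against the mean fragments per library (log scale) for the tested members with recovered fragments. Intervals narrow from left to right, and differences beyond 1 in either direction occur only where the mean is under 3 fragments.

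With all 20 libraries, the smallest p belonged to Snora78, a box H/ACA guide inside the noncoding host Snhg9. It had 698 to 1670 FPKM around a median of 1055 in Control against 439 to 1234 around 706 in P.T.ATBx, from 98 to 417 fragments per library. The groups overlapped, and P.T.ATBx was under the median of Control in 8 of 10 libraries. The log2 difference was −0.52 (95% CI −0.92 to −0.11, p = 0.0146, adjusted p = 0.232, limma), and it ran from −0.60 to −0.44 when any 1 library was left out. Its host Snhg9 had a difference of −0.10 (adjusted p = 0.928, limma).

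Scarna13, a scaRNA of the H/ACA kind inside Snhg10, had the tightest interval of these members. Its mean was 909.6 ± 91.4 FPKM in Control against 807.7 ± 103 in P.T.ATBx (SD over 10 libraries), and 7 of the 10 treated libraries were under the median of Control. The log2 difference was −0.18 (95% CI −0.33 to −0.02, p = 0.0251, adjusted p = 0.285, limma), and Snhg10 had −0.06.

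Snora81, a pseudouridylation guide inside the translation factor gene Eif4a2, had 21.7 to 59.0 FPKM around 32.5 in Control and 15.1 to 83.2 around 61.3 in P.T.ATBx. That is 4 to 23 fragments per library, with 9 of the 10 treated libraries over the median of Control and P.T.ATBx 10 the lowest of all 20. The log2 difference was 0.53 (95% CI −0.03 to 1.09, p = 0.0640, adjusted p = 0.401, limma). Without P.T.ATBx 10 its adjusted p was 0.102, the lowest that any member reached under any setting tried, and the difference was 0.72. Eif4a2, whose annotated exons cover Snora81, had a difference of 0.01.

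The remaining abundant members had smaller differences or wider intervals. Snora26, inside Dancr, had −0.28 (adjusted p = 0.647, limma), with 9 of the 10 treated libraries under the median of Control. Snora7a had 0.23, Snord17 0.19 and Snord15a 0.07, while Snora44 had −0.03, Snora74a −0.05, Snord15b −0.10 and Snord22 −0.10. Without Control 1, Snord17 had 0.31 (adjusted p = 0.175, limma), Snora74a 0.08 and Snord22 0.03. Snord15b and Snord15a are cut from the same host, Rps3, which had 0.01. Scarna6 had 0.01 and Snord47 −0.04, with an interval from −0.90 to 0.82.

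The 6 highest and 6 lowest differences came from members with few fragments, a mean under 3 per library in the 11 of them with recovered fragments. The 6 highest were those of Snord49b at 2.23, Snord57 at 1.36, Snora24 at 1.30, Snord35a at 0.99, Snora5c at 0.95 and Snord82 at 0.90. In fragments summed over 10 libraries, Snord49b had 20 in Control and 26 in P.T.ATBx, Snord57 1 and 3, Snord35a 9 and 16, Snora5c 10 and 17, and Snord82 19 and 20. For Snora24 no fragments are given. It ran from 9.42e-05 to 133 FPKM, and several libraries of each group were at or under 0.109. Such values place Snora24 among the members above 0 in every library, and they weigh on its difference. The 6 lowest were Snord55 at −1.98 with 9 and 2 fragments, Scarna10 at −1.43 with 12 and 6, Snora75 at −1.16 with 12 and 7, Snord23 at −0.96 with 3 and 0, Snord49a at −0.94 with 27 and 21, and Snord38a at −0.70 with 1 and 0. All 12 intervals included 0, and their adjusted p ran from 0.532 to 0.800 (limma). Snord49a and Snord49b, neighbours in 2410006H16Rik, stood at opposite ends of this order, and their host had 0.20.

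The genes around the members gave the same count. For 107 of 118 members an annotated gene of the table contains the RNA on its strand, 79 genes in all. Of these genes 77 were tested and 0 called, with a median difference of 0.01. An unadjusted p under 0.05 (limma) was reached by 7 of the 77, against 13.6% of all rows. The largest hosts encode ribosomal proteins: Rps12, which carries Snora33 and Snord100, had 3169 FPKM, and Rpl32 2168. Levels of a member and its host within a group were compared for 16 of the 18 best measured members, 32 relations. In Control 5 passed an adjusted permutation p of 0.05 by r, and in P.T.ATBx none of the 16 did, with 2 at an unadjusted p under 0.05. By rho none passed in either group. In 8 of the 16 members, at least 50% of the bases lie in an annotated exon of the host, so the member and the host can count the same fragments, and 3 of the 5 relations that passed are of this kind (Snord22, Snord15b and Snora70). In Control, Snord22 with Snhg1 had r = 0.90 (rho 0.70) and Snord17 with Snx5 r = 0.90 (rho 0.82), but without the 2 libraries farthest from the median these fell to 0.57 and 0.42. Snora23 with its host Ipo7 went the other way, with r = −0.84 (rho −0.86, adjusted permutation p = 0.0344 and 0.0615) and −0.62 without those 2.

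The proteins that build and use these RNAs also gave no call, as counted over lists of symbols. Of the box C/D core proteins, 0 of 4 passed: Fbl, the methyltransferase, had 55.4 ± 5.33 FPKM in Control against 52.8 ± 5.60 in P.T.ATBx, and Nhp2l1 42.9 ± 5.07 against 46.3 ± 4.41 (SD over 10 libraries). Of the H/ACA core proteins 0 of 4 passed, with Dkc1, the pseudouridine synthase, at 50.4 ± 4.75 and 50.3 ± 4.31. None passed among 10 assembly factors, 10 Cajal body and SMN complex genes, 15 genes of 3′ trimming and decay, 13 of RNA polymerase I transcription and 21 of rRNA processing, and the medians of these lists ran from −0.04 to 0.04. An unadjusted p under 0.05 (limma), which 13.6% of all rows had, was reached by few genes of these lists. They were Zcchc7, a part of the nuclear exosome adaptor TRAMP, at 0.16, and the polymerase I factor and snoRNA host Taf1d at 0.16. The others were the processing genes Dcaf13 at 0.12, Noc4l at −0.10 and Npm1 at 0.10. Of 12 noncoding hosts, 0 passed and 3 had an unadjusted p under 0.05: Snhg4 at 0.15, Snhg5 at 0.12 and Gas5, which carries Snord47, at 0.12. Of 40 coding hosts 0 passed, and the lowest p after Taf1d was that of Hspa8 at −0.13 (adjusted p = 0.182, limma). Among small nuclear RNAs, Rnu12 of the minor spliceosome had 722 ± 395 FPKM in Control against 919 ± 311 in P.T.ATBx, and Rnu11 28.1 ± 29.5 and 46.0 ± 28.8, while Rnu6 was at 0 in all libraries.

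The libraries held 15527 to 16345 rows above 0 and a summed FPKM of 556770 to 752782. Relative depth read from the steps ran from 0.808 to 1.28. Fibroblast markers summed to 2453 to 3764 FPKM and leukocyte markers to 196.3 to 330.6. The 10 epithelial markers summed to 4.88 to 179 FPKM in Control against 13.01 to 54.0 in P.T.ATBx. The simple keratins varied most, Krt19 from 0.429 to 64.6 FPKM, Krt18 from 0.335 to 53.7 and Krt8 from 0.125 to 44.8, while Epcam ran from 0.297 to 10.6, Cdh1 from 1.99 to 4.60 and Lgals4 from 0.146 to 1.17. The intestinal genes Krt20 (up to 0.319), Vil1 (up to 0.204) and Cdx1 (up to 0.113) were near 0, and Cdx2 was at 0 in all libraries. Among the markers only the fibroblast proteoglycan gene Dcn was called, at −0.31 (adjusted p = 0.00125, limma). Skeletal muscle markers summed to 0.839 to 78.4 FPKM in Control against 1.26 to 49.6 in P.T.ATBx. Adipocyte markers summed to 50.5 to 1658 and 71.4 to 446.7, so both sums differed between libraries. Whether the amount of neighbouring tissue differed, and its part in the members' levels, was not tested.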

How the data were processed

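The authors deposited 1 table of FPKM with a column per library. Its build is mm10, per the submitters' processing notes. Aligner, quantifier and annotation: not given in the sources used here. Read totals are unknown. Members and lists were chosen with earlier results of these data known. FPKM is not a count, so limma 3.58.1 (R 4.3.3) was fitted to log2(FPKM + 1) of the 12788 rows with a mean of at least 0.5, with group as its only term and robust, trended moderation, two-sided, with Benjamini-Hochberg adjustment over all rows and a threshold of 0.05. The log2(FPKM + 1) scale understates changes of rows with low FPKM. In short members it instead widens the gap between 0 and 1 fragment. Snord49b had a difference of 2.23 beside a ratio of depth-scaled fragments, P.T.ATBx to Control, of 1.41. Snord32a had 0.39 beside a ratio of 0.891, the opposite direction. The script was tested on simulated data. A member's step was found as the largest value that divides all its values, after scaling libraries by relative depth. The step was used for description and for 1 alternative, not for a count model. The minimum of 10 fragments, and shares and spreads without Control 1, were set after the values were seen. Relations used Python 3.11.15 with scipy 1.17.1. Named members were the 12 of highest mean FPKM, the 6 highest and 6 lowest differences, members at 0 in some library with a median above 10 FPKM, and a preset list. Snora78 and Scarna13 come under the first, Snora81 under the last. Others (Snord98, Snord99, Snord35b, Snora34, Snora70, Snora35, Snora36b, Snora23, the copies and the members without whole fragments) were named after their values were seen. Names were matched to RefSeq and GENCODE M21 for all 118 members. The labels state no pairing by replicate number, and the main fit used none. Alternatives changed the pseudocount, filter, scaling, weights, moderation, zeros, covariate, replicate block or libraries. Sequences on 1 chromosome are not reported here.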

Additional observations from a re-analysis of the deposited data

Results flagged for a closer look

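Of 42 groups of 10 values examined for a sample far from the others, 9 held one. Chance would give about 1 in 20 groups if the values were normally distributed. FPKM was used here without a log, and every far sample was the highest of its group, so that rate may not apply. In 8 of the 9 that sample was Control 1. It held 10375.1 FPKM of Snora74a (next highest Control library 5295), 5441 of Snord22 (577 fragments, next 3260 FPKM), 3226 of Snord17 (2272 fragments, next 1737), 835.3 of Snora70 (96 fragments, next 435.1), 570.5 of Snora64 (47 fragments, next 358.2), 539.1 of Snora23 (208 fragments, next 282.6) and 259.4 of Snora34 (22 fragments, next 160.4). The members took 4.851% of its summed FPKM (next 3.893%). The same library had the highest Rpph1 and Rmrp share, 20.48%. The remaining one was Snora26 in P.T.ATBx 10 at 702.8 FPKM (next 472.9). These groups share libraries and members move together, so the 9 are not independent. What sets Control 1 apart was not tested.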

How the results depend on the processing

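Under all 35 alternatives 0 members were called higher and 0 lower, also without the 4 libraries of highest summed FPKM (Control 1, Control 3, P.T.ATBx 1 and P.T.ATBx 4). That alternative and a pseudocount of 0.5 fragments were chosen after seeing the data. The smallest adjusted p of any member ran from 0.102 to 0.357 (limma). Snora78, Scarna13 and Snora81 kept their sign throughout, at −0.60 to −0.37, −0.21 to −0.14 and 0.45 to 0.72. Over all tested rows the calls were 59 higher and 49 lower, against 20 and 29 on the TPM scale, 154 and 152 with arrayWeights, 110 and 98 with the Rpph1 and Rmrp share as a covariate, and 31 and 36 without the 4 libraries. Leaving out 1 library in turn gave 38 to 104 higher and 31 to 89 lower. The cause of these shifts was not tested, except that fewer samples enter the last of them. With the replicate number as a block there were 65 higher and 59 lower, and 0 members in either direction. The numbers share no stated source, same-numbered libraries correlated at −0.32 to 0.39, and the block changed no member's call. Replicates 1, 2 and 5 were each other's best match between the groups, at 0.39, 0.23 and 0.27. What lies behind these matches was not tested. Without Rpph1 and Rmrp in the sum, the members' share was 3.87% in P.T.ATBx and 4.04% in Control. Differences near 0 or resting on few fragments changed sign. With the covariate, Snord47 went to 0.03 and Scarna6 to −0.04. Snora44 went to 0.01 with quantile normalization. Without the 4 libraries, Snora44 went to 0.05, Snord82 to −0.42, Snora5c to −0.12 and Snord38a to 0.00. With zeros as missing, Snora75 went to 0.10 and Snord49b to −0.37, and with arrayWeights Snord82 to −0.07. Leaving out 1 library gave −0.14 to 0.08 for Snora74a, −0.15 to 0.03 for Snord22, −0.32 to 0.08 for Snord47, −0.07 to 0.14 for Scarna6, −0.12 to 0.08 for Snora44 and −0.77 to 0.00 for Snord38a. The cause was not tested. Depth limits the 53 tested members under 10 mean fragments most. The median difference by class also changed sign, at −0.03 to 0.19 for box C/D, −0.05 to 0.18 for box H/ACA and −0.16 to 0.22 for Cajal body RNAs.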
